A study of Mus musculus with 9 samples.

Results

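A set of 7106 genomic regions lay away from gene ends and held an accessible-chromatin peak in every one of 9 peak lists of tumor-specific CD8 T cells. Each region came from merging the peaks of all lists wherever they shared at least 1 base. It was kept when all 9 lists had a peak in it and when it lay over 1 kb from both ends of every protein-coding gene of mm10. The 7106 regions were 47.0% of the 15109 regions called in all 9 lists and 11.3% of the 62963 merged regions on chromosomes 1 to 19 and X. The regions were chosen by their peak calls in these lists, so the size of the set and the levels behind the calls are descriptions, and the other 8003 always-called regions, within 1 kb of a gene end, serve as the comparison.

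The cells were P14 cells, CD8 T cells with a transgenic T cell receptor for a glycoprotein epitope of lymphocytic choriomeningitis virus, taken as naive CD44-GFP+ cells from TCF-1-GFP reporter mice on the C57BL/6 background. They were transferred, 500000 per mouse, into B6 mice 8 days after subcutaneous engraftment of B16.F10 melanoma cells that express that glycoprotein as a surrogate tumor antigen. CD45.1+CD44+ CD8 T cells were sorted from tumor-draining lymph nodes 4, 8 or 21 days after transfer, and 50000 cells per library went into ATAC-seq, in which the Tn5 enzyme cuts and tags open chromatin. All 3 groups were wild type and tumor-bearing and differed in the day alone, so there was no untreated or tumor-free group, and the model follows 1 receptor and 1 transplanted tumor line. Each day had 3 lists, 1 per library, and the labels do not say whether these came from separate animals.

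Accessible regions away from gene ends are often enhancers, stretches of DNA that transcription factors bind to raise transcription of a gene at a distance, but they also include insulators, promoters of noncoding RNAs and alternative promoters inside long genes. In CD8 T cells, distal regions of this kind are known to be opened by factors such as RUNX, ETS and TCF-1 during thymic development and to be remodelled by AP-1, T-bet and TOX after activation. A region that is open at every time of a response can therefore belong to the lineage, to the activated state the days share, or to every cell.

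The day 4 lists largely decided which regions qualified. They held 19499 to 22250 peaks, the day 8 lists 47513 to 50835 and the day 21 lists 46492 to 51671. The number of tags piled up at each summit, recovered from the deposited fold enrichment and p-value, had a median of 25 to 30 in the 7106 regions on day 4, 53 to 61 on day 8 and 57 to 69 on day 21. The smallest local background in a list was 2.62 to 3.38 tags on day 4, 2.14 to 2.63 on day 8 and 2.33 to 3.08 on day 21. The median local background of the 7106 regions was 4.19, 5.67 and 6.20 tags on days 4, 8 and 21. Read totals are not in the lists, and the cause of the lower summits of day 4 was not tested. Of the 2625 regions away from gene ends that were called in 8 of 9 lists, just outside the rule, 2609 missed a day 4 list. Their median fold enrichment over the local background was 4.21, 6.91 and 6.99 on days 4, 8 and 21, against 5.21, 8.52 and 8.48 in the 7106 regions. The 5 regions just over the distance limit lay 1002 to 1012 bases from the nearest gene end (near Fbxo7, Rnf145, Lcn4, Bcl3 and Kcnh8), with mean percentiles of 12.1 to 78.1 on the scale defined below. The 5 just under it lay 996 to 1000 bases away (near Taf8, Vps45, Zfp777, Taf9b and Trp53rkb), with mean percentiles of 14.3 to 72.1.

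Same-day lists differed less than counting error at fixed positions predicts. The chi-square of summit tag counts per region was 0.436 to 0.460 over the 9 pairs of same-day lists. Separate libraries with counting error alone would give about 1 at fixed positions. It was 1.31 to 1.41 for day 8 with day 4, 0.997 to 1.09 for day 21 with day 8 and 1.327 to 1.502 for day 21 with day 4. A summit is a maximum over a region, which lowers this value, but that holds for pairs within and between days alike. The 3 lists of a day were therefore counted as 1 sample, no p-value is given for a region, and counts from a test over the lists appear once, as an alternative. Day 21 with day 8 gave the lowest value of the different-day pairs, still over 2 times that of same-day pairs.

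All 10 T cell identity markers (among them Cd3e, Cd8a, Cd247 and Lck) had a region called in all 9 lists in or within 1 kb of the gene. None of the 6 B cell markers, the 2 NK cell markers or the 4 erythroid and platelet markers had one, nor did Foxp3. Always-called regions were present at Itgam and Spi1 among 6 myeloid genes, at Cd4, at Mitf and Pmel among 7 melanoma genes and at Pecam1 among 6 stromal and endothelial genes, and their part in the results below was not tested. Peak lists show whether a region was called in a bulk sample, and cannot tell fewer cells with an open region from less opening in each cell.

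The 7106 regions were distributed over genes much like other distal regions, and a larger share of them held a transcription start site. Inside gene bodies lay 4113 of them, or 57.9%, against 56.1% of the 10561 distal regions that were called in every day 8 and day 21 list and no day 4 list, and 56.7% of all 48846 merged regions away from gene ends. The median distance to the nearest gene end was 16.1 kb, against 18.1 kb and 17.6 kb in those comparison sets, and 620 regions lay over 100 kb away. Always-called distal regions were wider, with a median of 800 bases (interquartile range 649 to 1002), against 493 bases for the regions absent on day 4 and 1079 bases for the always-called regions near gene ends. The X chromosome held 107 of them, which was 33.3% of its always-called regions, against 39.5% to 53.8% on the autosomes.

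Start sites were read from RefSeq promoter windows of GRCm38.p6, the assembly of mm10, which reach from 250 bases before to 50 bases after a listed start and cover all chromosomes used here but 18. Of the 6884 regions on these chromosomes, 976 (14.2%) held a listed start, against 260 of 10230 (2.54%) of the distal regions absent on day 4 and 3.92% of all distal regions. The share climbed with width, from 4.61% in the narrowest of 4 equal groups to 9.25%, 12.6% and 30.4% in the wider ones, and its part in the difference from the narrower comparison regions was not tested. In 700 of the 976 the start was that of a protein-coding transcript, that is, an internal start over 1 kb from the gene's outer ends, and in 276 only that of a long noncoding RNA (lncRNA). The set therefore held 3 kinds of region: internal coding starts, lncRNA starts, and 5908 regions with no listed start.

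The sequences of 7 of these starts are shown as examples of internal coding and lncRNA starts that hold at least 1 of the motifs searched. The 3 coding starts lie in genes that work in T cells: Lef1 encodes a partner of TCF-1 in naive and memory cells, Prdm1 encodes the repressor Blimp-1 of effector cells, and Nfatc2 encodes a calcium-responsive factor downstream of the receptor. Lef1 and Prdm1 were chosen after their values were seen, and Nfatc2 was among the 10 widest regions. The 4 lncRNA starts were among the 10 highest-ranked regions with a noncoding start. Of the others in this group, BC002059, Gm35089, Dancr and 1700003G18Rik held no match and are not shown. The windows of 5730405O15Rik, with 3 GC boxes, and Gm29638, with 1 RUNX site, held matches but are not shown either. GC content was 51.7%, 59.7% and 68.0% in the Lef1, Prdm1 and Nfatc2 windows and 58.0% to 67.3% in the 4 lncRNA windows. Each sequence is the RefSeq window read 5′ to 3′ on the strand of its transcript, and capitals mark matches to any of 11 motifs searched on both strands.
Lef1: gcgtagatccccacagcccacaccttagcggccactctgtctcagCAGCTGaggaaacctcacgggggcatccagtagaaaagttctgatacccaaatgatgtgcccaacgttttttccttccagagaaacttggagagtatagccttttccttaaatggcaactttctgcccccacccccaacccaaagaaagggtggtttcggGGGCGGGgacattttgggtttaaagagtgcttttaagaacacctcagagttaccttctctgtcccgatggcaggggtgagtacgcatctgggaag
Prdm1: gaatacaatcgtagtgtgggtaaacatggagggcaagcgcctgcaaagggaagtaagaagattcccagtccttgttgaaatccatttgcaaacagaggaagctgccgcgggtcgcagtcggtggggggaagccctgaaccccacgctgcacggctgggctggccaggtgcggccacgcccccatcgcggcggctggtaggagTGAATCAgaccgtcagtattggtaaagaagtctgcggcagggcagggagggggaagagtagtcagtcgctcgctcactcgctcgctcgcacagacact
Nfatc2: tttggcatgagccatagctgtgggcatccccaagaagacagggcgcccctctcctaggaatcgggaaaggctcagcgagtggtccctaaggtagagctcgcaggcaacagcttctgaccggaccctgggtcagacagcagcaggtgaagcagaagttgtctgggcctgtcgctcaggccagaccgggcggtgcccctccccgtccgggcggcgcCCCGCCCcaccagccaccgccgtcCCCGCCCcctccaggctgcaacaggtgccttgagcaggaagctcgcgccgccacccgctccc
AA465934: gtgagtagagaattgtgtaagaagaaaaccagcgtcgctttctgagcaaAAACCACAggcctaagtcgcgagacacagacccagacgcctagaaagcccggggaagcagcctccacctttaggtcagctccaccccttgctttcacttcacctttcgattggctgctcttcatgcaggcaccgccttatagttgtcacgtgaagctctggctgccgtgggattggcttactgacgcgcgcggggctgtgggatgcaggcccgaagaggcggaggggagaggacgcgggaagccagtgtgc
Gm33560: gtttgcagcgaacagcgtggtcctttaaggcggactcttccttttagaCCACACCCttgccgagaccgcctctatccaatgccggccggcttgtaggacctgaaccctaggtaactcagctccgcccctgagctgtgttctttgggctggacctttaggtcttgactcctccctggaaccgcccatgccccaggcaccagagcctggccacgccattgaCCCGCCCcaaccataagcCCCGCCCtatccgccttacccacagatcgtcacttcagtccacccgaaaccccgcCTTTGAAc
Gm41209: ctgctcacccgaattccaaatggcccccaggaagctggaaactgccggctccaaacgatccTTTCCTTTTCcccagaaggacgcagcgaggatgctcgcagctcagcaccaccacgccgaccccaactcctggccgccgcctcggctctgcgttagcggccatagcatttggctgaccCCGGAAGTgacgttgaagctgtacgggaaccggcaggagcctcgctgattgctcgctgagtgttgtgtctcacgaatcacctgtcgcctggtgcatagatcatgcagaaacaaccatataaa
6430590A07Rik: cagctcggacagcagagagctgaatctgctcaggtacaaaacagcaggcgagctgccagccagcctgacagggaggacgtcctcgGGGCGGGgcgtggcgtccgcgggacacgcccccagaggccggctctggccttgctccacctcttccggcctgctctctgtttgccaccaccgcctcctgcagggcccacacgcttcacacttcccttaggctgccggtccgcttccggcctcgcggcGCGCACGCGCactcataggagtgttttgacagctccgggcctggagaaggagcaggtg
These windows lie, in GRCm38.p6, with Lef1 at chr3:131112541-131112840 (+ strand), Prdm1 at chr10:44458699-44458998 (- strand), Nfatc2 at chr2:168590316-168590615 (- strand), AA465934 at chr11:83291449-83291748 (+ strand), Gm33560 at chr7:141122981-141123280 (+ strand), Gm41209 at chr14:73525052-73525351 (+ strand) and 6430590A07Rik at chr3:40894055-40894354 (- strand).

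In these windows the capitals marked a GC box (GGGCGGG) and an E box (CAGCTG) at Lef1, an AP-1 site (TGANTCA) at Prdm1 and 2 GC boxes at Nfatc2. They marked a RUNX site (TGTGGTTT) at AA465934, and 2 GC boxes, a KLF site (CCACACCC) and a TCF/LEF site (CTTTGAA) at Gm33560. An ETS site of the promoter type (CCGGAAGT) and an IRF site (GAAA, any 2 bases, GAAA) stood at Gm41209, and a GC box and an NRF1 site (GCGC, any base, TGCGC) at 6430590A07Rik. The 6430590A07Rik region also holds the internal coding start of Abhd18 on the other strand, whose window overlaps this one and shares both matches. A match is a run of letters and not a site shown to be bound.

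Over all windows whose start lay in one of the 7106 regions, coding and lncRNA starts differed in composition. A region can hold windows of both kinds, and such windows can overlap. GC content averaged 61.6% in 831 coding windows and 57.2% in 400 lncRNA windows, against 62.6% in 8423 windows of always-called regions near gene ends and 53.9% in all 32585 windows. A GC box, the site of SP and KLF factors, stood in 48.3% of coding and 30.8% of lncRNA windows, against 53.1% near gene ends and 25.7% in all windows. NRF1, a factor of constitutive promoters, had its letters in 10.7% and 6.00% of them, against 13.3% and 4.62%, and the promoter type of ETS site in 8.30% and 3.75%, against 10.9% and 3.92%. Several other motifs ran the other way, higher in lncRNA than in coding windows. A RUNX match stood in 0.842% of coding and 4.75% of lncRNA windows, against 0.950% near gene ends and 1.79% in all windows, which makes 7 coding and 19 lncRNA windows. The ETS motif CAGGAAGT stood in 4.81% of coding and 7.50% of lncRNA windows, against 3.36% and 3.35%, and the core of the insulator factor CTCF (CCA, any 2 bases, AG, any 2 bases, GGC) in 2.89% and 5.50%, against 2.94% and 2.44%. AP-1 letters stood in 4.33% and 8.25%, against 3.55% and 7.85%. TCF/LEF letters stood in 3.37% and 6.25%, against 2.97% and 5.14%, and KLF letters in 2.89% and 3.75%, against 3.69% and 3.57%. E boxes stood in 13.2% and 15.25%, against 13.3% and 16.4%. IRF letters showed no such order, with 2.77% and 2.75%, against 2.90% and 3.45%. In GC content, GC boxes, E boxes and NRF1 letters the lncRNA windows lay between the coding windows and all windows. For RUNX, CAGGAAGT, CTCF and TCF/LEF they lay above both, and for AP-1 and KLF above all windows only narrowly.

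To compare days whose summits and folds differed in level, each region was ranked in every list by its highest fold enrichment among the 15109 always-called regions, with 100 the top. Ranks are relative, so a higher rank of distal regions is also a lower rank of regions near gene ends. The median percentile of the 7106 regions was 37.7 to 38.5 in the day 4 lists, 42.1 to 42.9 on day 8 and 44.7 to 45.9 on day 21. For regions near gene ends it was 61.7 to 62.2, 56.2 to 57.3 and 53.8 to 54.7. The distal regions lay below the others in every list, the lists of a day lay close together, and the gap between the 2 classes was narrowest on day 21. At the top of the range the shift was larger: the distal regions made up 20.2% to 22.3% of the top 10% of always-called regions on day 4, 32.2% to 34.2% on day 8 and 38.4% to 41.8% on day 21.

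**Figure D1:**
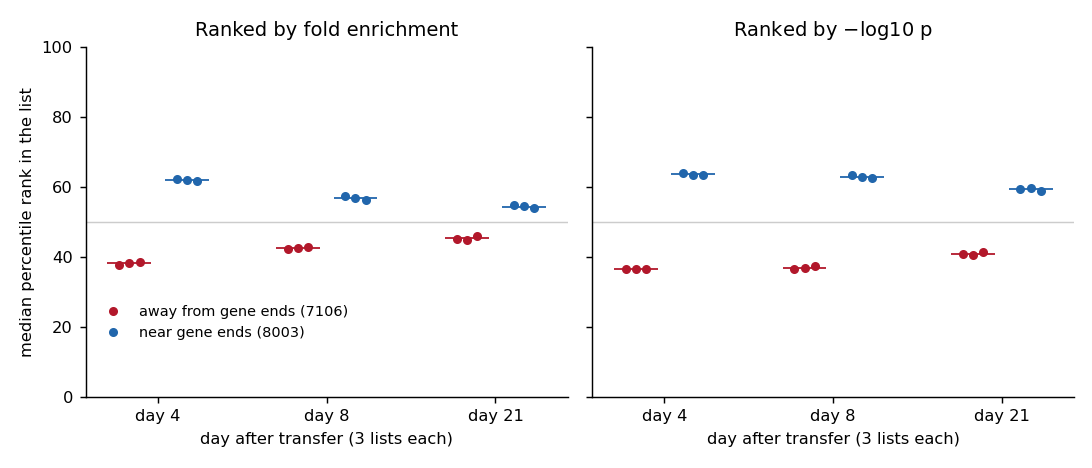
Median percentile rank of the 7106 always-called regions away from gene ends (red) and of the 8003 near gene ends (blue) in each of the 9 lists, by day, ranked by fold enrichment (left) and by −log10 p (right). Points are lists and bars are day means. By fold the distal median lies at 37.7 to 38.5 on day 4 and 44.7 to 45.9 on day 21, and by −log10 p it lies at 36.4 to 36.5 and 40.5 to 41.3.

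The size of the early step depended on the measure. Ranked by −log10 p in place of fold enrichment, the distal median was 36.4 to 36.5 on day 4, 36.4 to 37.2 on day 8 and 40.5 to 41.3 on day 21. By that measure day 8 overlapped day 4, and day 21 stood above both. Fold enrichment divides by the local background, whose median in these regions was 4.19, 5.67 and 6.20 tags on days 4, 8 and 21. From the narrowest of 4 equal groups by width (225 to 649 bases) to the widest (1003 to 3970 bases) the median mean percentile was 34.5, 45.4, 48.0 and 43.9 by fold and 26.0, 37.0, 41.8 and 47.9 by −log10 p. Rank thus climbed with width throughout by −log10 p, and by fold up to the third group only.

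The 3 kinds of region did not move alike. Regions with an internal coding start had a median percentile of 55.0 on day 4, 47.9 on day 8 and 45.6 on day 21, as means of the 3 lists. Those with an lncRNA start had 44.4, 46.0 and 44.6. Regions with no listed start had 36.2, 41.7 and 45.3. On day 4 the lists of the 3 kinds did not overlap, and on day 21 they lay between 43.8 and 46.3 together. Ranked by −log10 p the medians were 57.7, 56.3 and 54.5 for coding starts, 44.6, 45.8 and 44.1 for lncRNA starts and 34.0, 34.6 and 39.5 for regions with no listed start. The kinds drew nearer by this measure too, but they stayed apart on day 21, and regions with no listed start moved little before day 21.

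**Figure D2:**
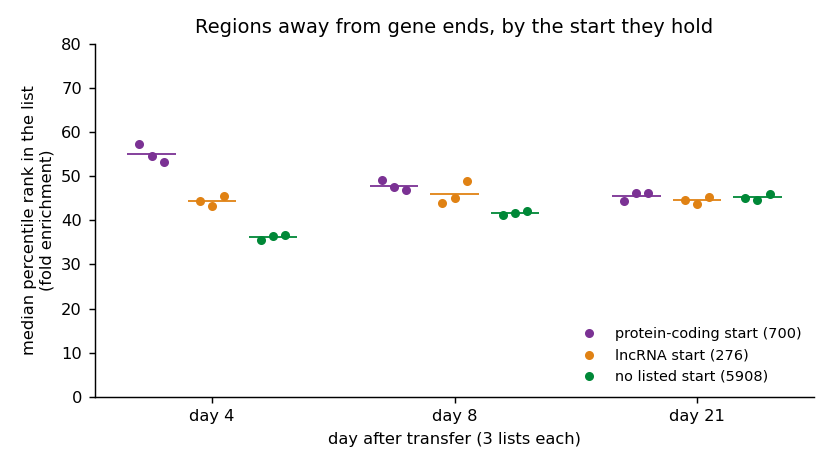
Median percentile rank by fold enrichment in each list for always-called regions away from gene ends that hold a protein-coding start (purple, 700), only an lncRNA start (orange, 276) or no listed start (green, 5908). Points are lists and bars are day means, which run at 55.0, 47.9 and 45.6 for coding starts and at 36.2, 41.7 and 45.3 for regions with no listed start.

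A region was called higher or lower in rank when the mean percentiles of 2 days differed by at least 20 points and their lists did not overlap. Between day 8 and day 4, 1125 of the 7106 regions (15.8%) rose, against 11.2% of all 15109 always-called regions, and 663 (9.33%) fell, against 11.9% of all. Between day 21 and day 8, 277 (3.90%) rose, against 2.18% of all, and 111 (1.56%) fell, against 1.57% of all. Between day 21 and day 4, 1414 (19.9%) rose, against 12.4%, and 624 (8.78%) fell, against 13.3%. The excess of rises over falls was relative to regions near gene ends. When the 7106 regions were ranked among themselves alone, 882 rose and 980 fell between day 8 and day 4, 185 and 184 between day 21 and day 8, and 922 and 1031 between day 21 and day 4. Ranks within 1 set have the same mean in every list, so this ranking cannot show a shift of the set as a whole. The 3 comparisons share their lists. As an alternative that takes each list as a sample, and whose p-values then rest on lists closer together than counting error, limma (Benjamini-Hochberg adjusted p under 0.05) called 1173 of the regions higher and 874 lower between day 8 and day 4, against 12% and 15.5% of all always-called regions, and 1460 and 806 between day 21 and day 4, against 13.5% and 16.9% of all. From day 8 to day 21 it called 2 higher and 0 lower, against 0.0132% and 0% of all, while 556 and 252 had an unadjusted p under 0.05. With the replicate number as a block it called 1111 and 783 for day 8 with day 4 (11.3% and 14% of all), 0 and 0 for day 21 with day 8 (0% and 0% of all; 545 and 240 unadjusted) and 1420 and 759 for day 21 with day 4 (13% and 15.9% of all). By the rule of 20 points with no overlap of lists, 4495 regions (63.3%) were called in none of the 3 comparisons.

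Of the regions called, most with an internal coding start fell and most with no listed start rose. Of 700 with a coding start, 33 (4.71%) rose and 126 (18%) fell between day 21 and day 4. Of 5908 with no listed start, 1312 (22.2%) rose and 439 (7.43%) fell. Of the always-called regions near gene ends 5.76% rose and 17.3% fell, and of all always-called regions 12.4% and 13.3%. The shares for coding starts were thus close to those near gene ends. These counts are by fold. Among the regions away from gene ends, a listed start was held by 4.79% of those that rose, 26.2% of those that fell and 15.4% of those called neither way. The regions that rose had a median width of 750 bases and lay a median 20.8 kb from a gene end, against 916 bases and 12.4 kb for those that fell. Ranked by −log10 p, 617 regions rose and 548 fell between day 8 and day 4, against 6.6% and 6.25% of all always-called regions, and 559 and 174 between day 21 and day 8, against 4.36% and 3.6% of all. By that measure 934 rose and 401 fell between day 21 and day 4, against 7.53% and 6.59% of all, and 756 and 234 of these carried the same call as by fold. The regions away from gene ends were 47.0% of the always-called regions. Between day 8 and day 4 they held 617 of the 997 rises by −log10 p and 548 of the 945 falls. Both exceeded that share. By fold they held 663 of the 1797 falls of this step, less than that share. The deficit of falls in this step thus depended on the measure. Falls by −log10 p stayed below that share for day 21, at 174 of 544 against day 8 and 401 of 995 against day 4. No region called one way by fold was called the other way by −log10 p in any of the 3 comparisons. Both measures rest on the same summit count and local background, so opposite calls were unlikely. Of the calls by fold, 37.5% to 67.5% per comparison and direction were also calls by −log10 p.

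**Figure D3:**
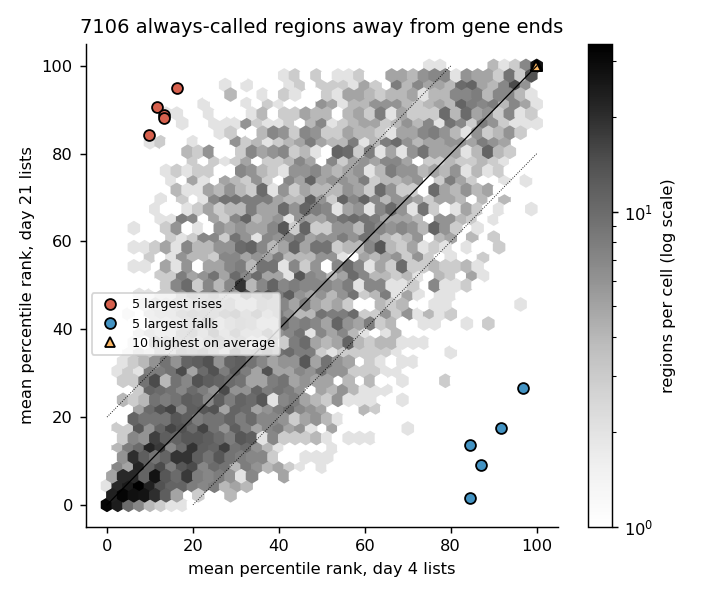
Mean percentile rank of each of the 7106 regions in the day 4 lists (horizontal) and the day 21 lists (vertical), as density on a log colour scale. The solid line marks equal rank and the dotted lines a difference of 20 points, beyond which 1414 regions lay above and 624 below with no overlap of lists. The 5 largest rises, the 5 largest falls and the 10 regions of highest mean rank are marked.

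The largest rises after day 4 were in small regions near the calling limit on that day. The largest between day 8 and day 4 lay inside Ifi211 (chr1:173905929-173906525), a member of the interferon-inducible DNA sensor family. Its percentile was 23.3, 24.7 and 1.28 in the day 4 lists, 97.9, 98.8 and 98.6 on day 8, and 91.3, 98.3 and 95.0 on day 21. Both later days lay wholly above day 4, with differences of 82.0 points on day 8 and 78.5 on day 21, and with 51.1 points on day 21 when ranked by −log10 p. Regions in Hacd3, Sgtb and Ankrd44 and one beside Bglap followed it, at 14.1 to 23.8 on day 4 and 87.5 to 95.4 on day 8. A region 76.1 kb from Pik3cg, the gene of the leukocyte PI3-kinase gamma catalytic subunit, climbed later. Its percentile was 6.07, 23.8 and 5.20 on day 4, 50.2, 15.3 and 54.0 on day 8, and 89.2, 94.7 and 87.7 on day 21. Day 21 lay above both other days here, 78.9 points above day 4 and 50.7 above day 8. Against day 8, a region 41.0 kb from Ctsc, the protease that activates granzymes, rose by 55.9 points and one inside Sox6 by 54.5 points.

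In the largest falls after day 4 the mean tag count was lower on both later days than on day 4, against a median ratio of 2.05 on day 8 over all 7106 regions. The region of the largest fall between day 8 and day 4 (chr17:13654545-13655296, 61.1 kb from Tcte2) had a percentile of 97.6, 95.0 and 98.2 on day 4, 18.3, 8.69 and 15.2 on day 8, and 18.6, 19.5 and 41.9 on day 21. Its summit held 44, 41 and 57 tags on day 4, 29, 29 and 34 on day 8, and 32, 35 and 51 on day 21. The fall was 82.9 points by fold and 86.3 by −log10 p between day 8 and day 4, and the summit counts of day 8 were the lowest. Inside Aida, a region of 531 bases had 99, 112 and 116 tags on day 4, 95, 110 and 103 on day 8 and 98, 96 and 121 on day 21, and its mean percentile was 91.8, 16.3 and 17.4. The falls of day 21 against day 8 were smaller, led by regions inside Itga9, an integrin subunit, with mean percentiles of 11.4 on day 21 and 59.4 on day 8, and 36.2 kb from Inf2, with 21.6 on day 21 and 65.0 on day 8.

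By assigning a region to the gene it overlapped, or otherwise to the gene with the nearest end within 100 kb, 6693 regions (94.2%) were placed. They touched 4095 of 21631 protein-coding genes (18.9%), and 141 genes had at least 5. Bach2, the repressor that holds T cells in a naive or memory-like state, had the most with 12, of 46 distal merged regions. Prkch and Prkcq, protein kinase C isoforms of T cells of which the second acts at the immune synapse, had 11 and 10. Arhgef3, Chd7, Slc9a9 and Sfi1 had 10 each, and Lef1, Akap13, Pde4d and Ppm1h had 9 each. Foxp1, which restrains naive T cells, had 8, as did Frmd4b, Gramd3 and Maml2, a coactivator of Notch. Long genes can hold more regions, and these genes spanned 71.5 kb (Sfi1) to 1302 kb (Pde4d).

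Counts differed widely between the gene lists, which were chosen with earlier results known. At least 1 of the 7106 regions was assigned to 22 of 30 T cell identity genes, 18 of 20 memory and stemness genes, 15 of 20 inhibitory receptor and exhaustion genes, 15 of 24 effector genes, 18 of 25 activation genes and 17 of 22 cytokine signalling genes, against 18.9% of all protein-coding genes. Outside the T cell lists, 12 of 20 genes of chromatin looping and DNA methylation had one, a share near that of the effector list. Among 12 cell division genes 2 had one, among 20 constitutive genes 4 and among 10 B cell genes 1. Read as a share of the distal merged regions of the same genes the T cell, constitutive, cell division and chromatin lists lay closer together. The share was 17.1% for T cell identity, 20.6% for memory and stemness and 21.1% for inhibitory receptors. It was 22.4% for constitutive, 22.7% for cell division and 20.3% for chromatin genes, against 14.5% over all genes and 5.26% for B cell genes. Among other cell types, a region was present at 4 of 8 genes of the NK list and 5 of 10 of the CD4 list, with shares of 32.0% (8 of 25 regions) and 23.5%. The erythroid and platelet list had 1 of 4 regions and the myeloid list 3 of 25, and the shares were 11.1% for melanoma and 8.11% for stromal and endothelial genes. The genes with the most regions were Runx1 (7), Ets1 (6) and Tcf7 (6) for identity, Fasl (6) and Ifng (4) for effector function, Cblb (7) and Tox (4) for inhibition, Cd69 (6) and Fos (4) for activation, Jak1 and Tgfbr2 (6 each) for cytokine signalling and Dnmt3a (5) for chromatin. Other cell types gave Klrb1c (4) among NK genes, Ccr4, Cd40lg and Il21 (2 each) among CD4 genes, Spi1, Flt3 and Xcr1 (1 each) among myeloid genes, Pmel (1) for melanoma and Pecam1 (2) for endothelium.

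**Figure D4:**
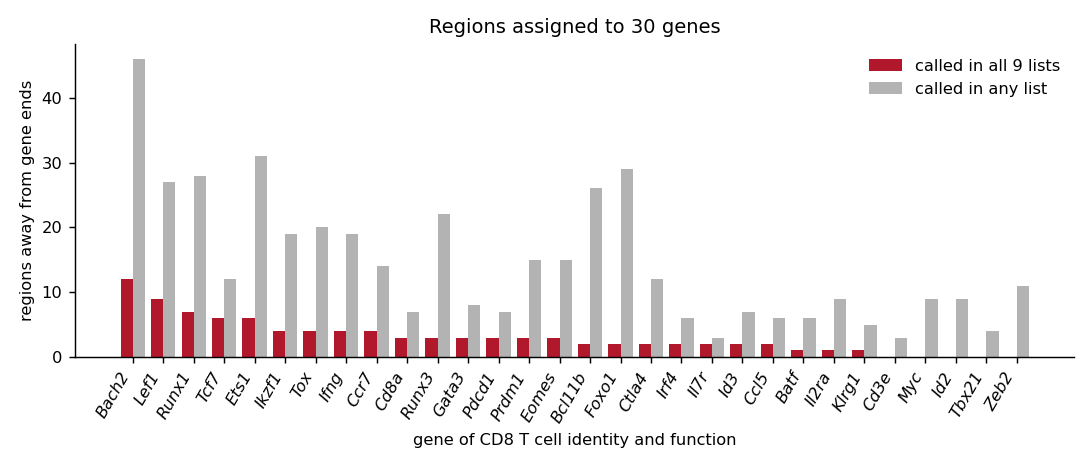
Number of always-called regions away from gene ends (red) and of all distal merged regions called in any list (grey) assigned to each of 30 genes of CD8 T cell identity and function. Bach2 has 12 of 46 and Tcf7 6 of 12, and Cd3e, Myc, Id2, Tbx21 and Zeb2 have none in red.

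Among 30 genes of CD8 T cell identity and function, 25 had 1 or more of these regions, 91 regions in all. Cd3e, Myc, Id2, Tbx21 and Zeb2 had none, although 3 to 11 distal regions of each were called in some list. Tcf7, the gene of TCF-1, which long-lived and self-renewing CD8 T cells depend on, had 6 always-called regions of 12. Cd8a, the coreceptor gene, and Pdcd1, the gene of the inhibitory receptor PD-1, each had 3 of 7. Of the 91 regions, 11 (12.1%) rose and 7 (7.69%) fell between day 21 and day 4, against the 12.4% and 13.3% of all always-called regions. Between day 8 and day 4, 7 (7.69%) rose and 8 (8.79%) fell, against 11.2% and 11.9% of all, and between day 21 and day 8, 3 (3.30%) rose and 0 fell, against 2.18% and 1.57% of all. Ranked by −log10 p, 9 (9.89%) rose and 0 fell in that last step, against 4.36% and 3.6% of all.

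The highest-ranked region of the 30 genes was assigned to Pdcd1 and lay 39.0 kb from it (chr1:94091583-94092490). Its percentile was 98.7, 98.2 and 96.9 on day 4, 94.9, 99.0 and 99.5 on day 8, and 98.8, 99.4 and 99.6 on day 21. By fold it stayed in the top 10% in all 9 lists. By −log10 p its mean percentile was 89.0, 74.1 and 96.9 on days 4, 8 and 21, with 61.2, 74.6 and 86.6 in the day 8 lists and a called rise of 22.8 points between day 21 and day 8. The highest region of Ifng, the gene of the cytokine interferon gamma, lay 21.4 kb from it with mean percentiles of 90.7, 87.5 and 82.9 on days 4, 8 and 21. That of Tcf7 lay 16.0 kb away, at 84.0, 83.1 and 81.5, that of Lef1 lay inside the gene, at 89.0, 74.1 and 90.8, and that of Bach2 lay 88.8 kb away, at 89.0, 74.6 and 78.8. None of these 4 was called by fold in any comparison. At the other end the highest regions by fold of Bcl11b, Gata3 and Il7r had mean percentiles of 5.69, 11.5 and 18.1 over the 9 lists. By fold a gene of T cell identity could thus have only low-ranked regions among the always-called distal ones. By −log10 p another Gata3 region (chr2:9879179-9879905) had 54.3, 16.0 and 36.3 on days 4, 8 and 21. The Bcl11b region had 16.4, 17.3 and 17.4 by that measure, and the Il7r region 21.6, 2.38 and 5.00.

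Regions of the same gene moved apart. At Ifng, the region 5.08 kb away (chr10:118435197-118435964) had a percentile of 6.07, 3.24 and 8.63 on day 4, 42.8, 74.3 and 51.6 on day 8, and 44.5, 76.9 and 71.2 on day 21. Both later days lay above day 4, by 50.3 and 58.2 points (35.8 for day 21 by −log10 p), while the region 21.4 kb away was not called. A region 57.6 kb from Ets1, a factor of T cell development, had 10.6, 38.3 and 22.9 on day 4, 83.4, 70.0 and 76.8 on day 8, and 78.7, 67.5 and 94.5 on day 21, a difference of 56.3 points on day 21 and of 24.6 by −log10 p. Near Id3, the inhibitor of E proteins found in memory precursors, a region had 10.0, 35.0 and 44.0 on day 4, 72.6, 90.02 and 76.4 on day 8, and 95.0, 72.5 and 89.0 on day 21. It rose by 55.9 points on day 21 (47.4 by −log10 p). The region 19.3 kb from Ccl5, an effector chemokine gene, rose by 44.6 points by fold, with 1 day 4 list at 3.00 and the other 2 at 59.1 and 59.6. By −log10 p its difference was 24.1 points with overlapping lists, which is no call.

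Falls at these genes included a second Tcf7 region 30.4 kb away (chr11:52313772-52314773), with a percentile of 59.3, 42.1 and 46.2 on day 4, 10.2, 12.8 and 13.7 on day 8, and 15.4, 12.01 and 10.0 on day 21. The day 21 lists lay 36.7 points below day 4 by fold and 24.2 by −log10 p, while its local background averaged 7.59, 14.7 and 13.8 tags on the 3 days. The region of Klrg1, a receptor of terminal effector cells, had 47.3, 64.7 and 60.1 on day 4, 9.27, 22.2 and 16.9 on day 8, and 26.4, 20.1 and 35.0 on day 21. It fell by 30.2 points between day 21 and day 4 and by 23.0 by −log10 p. By fold Runx1 had 2 regions that rose and 2 that fell between these days, and Ikzf1 and Bach2 also had regions going each way. By −log10 p both Runx1 falls (differences of -8.46 and -17.6 points), 1 Runx1 rise (18.1) and the Ikzf1 fall (-19.6) were no longer called, and Bach2 kept 1 rise and 1 fall. The internal start of Lef1 shown above lay low, at 6.97, 2.60 and 3.98 on the 3 days, and that of Prdm1 had 57.0, 78.2 and 63.9, with a rise of 21.3 points between day 8 and day 4.

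**Figure D5:**
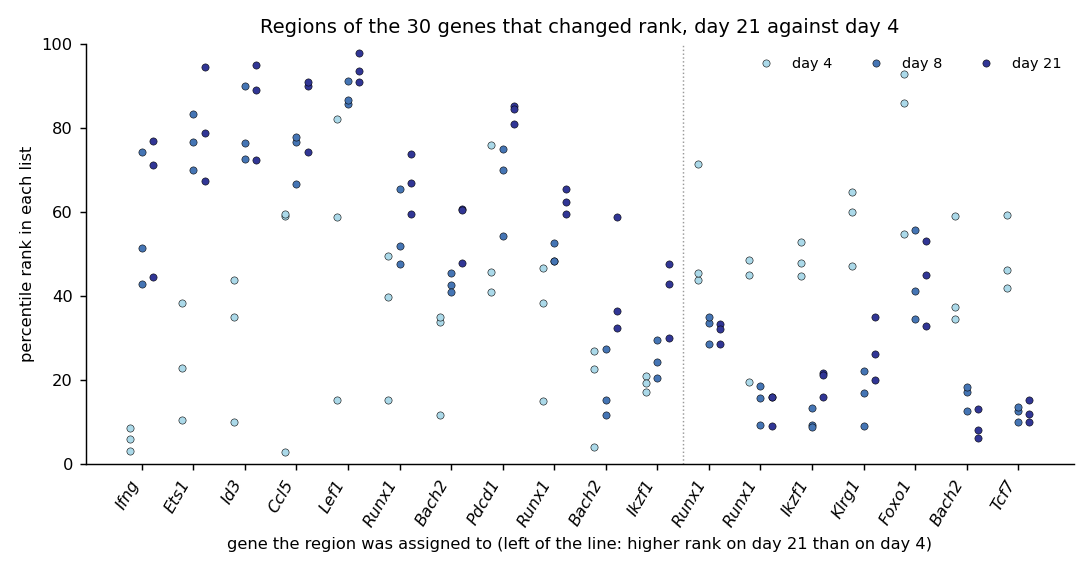
Percentile rank in each of the 9 lists (points, 3 per day) for the 18 regions of the 30 genes that changed rank between day 21 and day 4, ordered by the difference, with the 11 that rose left of the dotted line and the 7 that fell right of it. The Ifng region at the left lies at 3.24 to 8.63 on day 4 and 44.5 to 76.9 on day 21.

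The receptor loci, picked after their values were seen, held regions at both ends of the ranking. The T cell receptor beta locus had 10 of the 7106 regions, the alpha locus 5, the gamma locus 2 and the immunoglobulin heavy chain locus 21. At the variable segment Trbv13-3 (chr6:41130204-41130672) the summit held 62, 64 and 83 tags on day 4, 100, 114 and 124 on day 8, and 104, 92 and 122 on day 21. Its mean percentile was 99.9 on each of the 3 days. At Trav14-1 (chr14:53553754-53554635) the mean percentile was 99.5, 97.4 and 98.9. Segments of these 2 families encode the beta and alpha chains of the P14 receptor, and reads of the transgene and of the endogenous locus cannot be told apart in these lists. The constant segment Trac had 3 regions, and the lowest of them had mean percentiles of 0.0860, 0.477 and 0.718, with local backgrounds of 13.5, 24.6 and 21.8 tags.

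Noncoding genes other than lncRNAs were overlapped by a minority of the regions. For tRNAs, 46 regions covered 68 of 408 annotated genes (16.7%), and for microRNAs (miRNAs) 15 regions covered 16 of 1228, while 1178 regions overlapped 1027 of 12697 lncRNA genes. One region (chr11:75173097-75174006) held both Mir212 and Mir132, whose 3p products share a seed, the bases 2 to 8 that pair with targets, and which are induced by immune and neuronal stimuli. Mirlet7i, of the let-7 family that restrains proliferation, and Mir210, which hypoxia induces, were overlapped by one region each. Their mature sequences (RefSeq, GRCm38.p6, seed in capitals) are shown to identify them, and the 4 miRNAs were chosen after values were seen.
mmu-miR-132-3p: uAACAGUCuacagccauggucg
mmu-miR-212-3p: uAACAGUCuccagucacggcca
mmu-let-7i-5p: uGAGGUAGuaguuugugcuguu
mmu-miR-210-3p: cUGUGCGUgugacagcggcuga
The mature products lie with miR-132-3p at chr11:75173723-75173744 (+ strand), miR-212-3p at chr11:75173443-75173464 (+ strand), let-7i-5p at chr10:122985698-122985719 (- strand) and miR-210-3p at chr7:141221407-141221428 (- strand).

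The Mir132 and Mir212 region had mean percentiles of 10.3, 9.95 and 10.0 on days 4, 8 and 21, and the Mirlet7i region 14.4, 6.12 and 6.57. Neither was called in any comparison. The Mir210 region, which overlaps the precursor but neither mature product, had 46.6, 79.7 and 69.8 and rose between day 8 and day 4, by 33.1 points, and between day 21 and day 4, by 23.2.

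The highest-ranked lncRNA starts kept high ranks on all 3 days. BC002059 led with mean percentiles of 99.1, 99.0 and 98.8, followed by Gm35089 beside the internal start of AB010352. AA465934, whose window holds a RUNX match as that of Gm29638 does, had 94.9, 94.4 and 98.5 on day 4. It had 99.7, 99.8 and 99.3 on day 8, and 99.3, 99.5 and 99.2 on day 21. Dancr had 97.7, 95.0 and 90.1. None of the 10 highest was called between any 2 days. The regions of Gm35089, 6430590A07Rik and 1700003G18Rik also held the internal coding starts of AB010352, Abhd18 and 1110004F10Rik, so their ranks are not those of lncRNA starts alone. Among the 10 widest regions the highest mean percentile was 27.3, and 5 of them held internal coding starts (Rreb1, Map3k1, Cdc14a, Larp1 and Nfatc2), so width and fold rank parted at this end.

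The very highest ranks went to regions whose tag counts differed little between days. The 10 regions of highest mean percentile lay inside Chl1, Cldn34d, Atrnl1 and Apool, and 29.2 to 392 kb from Rab10, Rpusd4, Pak3, Nbea, Cr2 and Kcnh5, none of which is in a T cell list used here. The first (chr6:103648983-103649381, inside Chl1, a neuronal adhesion gene) held 217, 217 and 226 tags at its summit on day 4, 209, 209 and 217 on day 8, and 211, 205 and 216 on day 21. In these 10 regions the mean tag count of day 8 was 0.850 to 1.23 times that of day 4, against a median of 2.05 over all 7106 regions (interquartile range 1.81 to 2.31). The mean of day 21 was 0.871 to 1.36 times that of day 4, against a median of 2.18, with the region near Cr2 highest, at 159, 167 and 185 tags on day 21 and 119, 122 and 134 on day 4. Another 16 regions had a local background of at least 5 times the median in every list. They lay at Sfi1, at the 18S ribosomal sequence Rn18s-rs5, at Pisd-ps1 and Pisd-ps2, and in gene-poor stretches such as chr2:98662204-98667359, and their ratio of day 8 to day 4 was 0.918 to 1.54. The handling of reads that match more than 1 place in the genome is not stated in the labels, and its part in these ranks was not tested.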

How the data were processed

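The 9 ATAC-seq libraries, 3 per day, were all used. The genome build mm10 and the tools deepTools 2.0, MACS2, Picard and BWA 0.7.15 are named, without their roles, per the submitters' processing notes. Nothing used here states the read filters, the Tn5 shift, the handling of reads that match several places or the peak settings. The deposited lists hold, per peak, a position, a score, a fold enrichment ratio at the summit over local background and −log10 p and −log10 q, all from the authors' peak calling, 1 list per library; every q was at most 0.05. Groups and replicate numbers came from the sample titles, since the genotype and time point tags carry each other's values.

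Peaks on chromosomes 1 to 19 and X (353295, with 212 on others left out) were merged at 1 shared base, and gene ends came from 21631 protein-coding genes of RefSeq GRCm38.p6. The whole-number summit tag count and the local background were solved from the deposited fold enrichment ratio and −log10 p, assuming the Poisson formula of MACS2, and came out whole in 100% of peaks of every list (tolerance 0.001 in −log10 p). Read totals are not in the lists, so depth is unknown; the summit counts vary with counting error and with enrichment. The regions, gene lists, motifs and rules were chosen with earlier results of these data known. Members and lists named were the 10 of highest mean percentile, the 10 widest, the 5 largest rises and falls per pair of days, the highest per gene of 30 genes, the 5 on each side of 1 kb, up to 10 with noncoding starts, the 15 genes with most regions and the 3 leading genes of each of 16 lists; others are said to be chosen later. All 254 distinct listed symbols matched. No genome was used, so motifs were counted only in RefSeq windows.

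Same-numbered lists of different days were not paired: their deviations from the day means correlated by −0.029 to 0.023 over 9 pairs. Alternatives were ranking by −log10 p, by tag count or among these regions alone, other sizes, distances and peak thresholds, leaving out each list, and limma 3.58.1 (R 4.3.3) on the percentiles over all 15109 regions. The peak solver and limma were tested on simulated data. Python 3.11.15, pandas 2.3.3, numpy 2.4.6 and matplotlib 3.10.9 were used.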

Additional observations from a re-analysis of the deposited data

How the results depend on the processing

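The number of regions was 5561 to 7106 under the planned and added rules (7106 at 50% overlap, 6909 with q of 0.001 or less, 5561 from the 19499 strongest peaks of each list, 6590 and 5614 over 2 and 5 kb from gene ends, 6156 counting noncoding genes, 7019 where all lists share a base) and 7106 to 8310 with 1 list left out, the most without a day 4 list. The 50% overlap rule could not change the count, because each peak lies wholly inside its merged region. The share inside genes fell to 56.7% and 55.5% over 2 and 5 kb. With 1 list left out the median percentile was 38.0 to 38.4 on day 4, 42.3 to 42.7 on day 8 and 44.9 to 45.4 on day 21. By −log10 p it was 36.5, 36.8 and 40.8. By fold, in the regions with no listed start alone, it was 36.2 on day 4 and 41.7 on day 8.

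Counts of rank changes depended on the size asked for, the measure and the background. Between day 8 and day 4, rises numbered 617 by −log10 p, 448 by tag count and 707 at 30 points, and falls 1105 at 10 points, 264 at 30 and 427 by tag count. Between day 21 and day 8, rises numbered 559 by −log10 p, 643 by tag count, 688 at 10 points and 75 at 30, and falls 174, 181, 367 and 18, and 184 among these regions alone. Between day 21 and day 4, rises numbered 934 by −log10 p, 756 by tag count, 887 at 30 points and 922 among these regions alone, and falls 401 by −log10 p, 287 by tag count, 1041 at 10 points, 242 at 30 and 1031 among these regions alone. With 1 list left out, rises and falls were 1192 to 1310 and 696 to 780 between day 8 and day 4, 341 to 376 and 138 to 182 between day 21 and day 8 (182 without day 21 replicate 3), and 1482 to 1569 and 658 to 721 between day 21 and day 4, since fewer lists overlap less. The cause of the other differences was not tested. Shares over all always-called regions were not taken for tag count, other sizes or left-out lists. These counts therefore show only how the calls depend on the setting, and not how the regions differ from all always-called regions.

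limma with the lists as samples called 1173 rises and 874 falls between day 8 and day 4, 1460 and 806 between day 21 and day 4, and 2 and 0 between day 21 and day 8. With the replicate number as a block it called 1111 and 783, 1420 and 759, and 0 and 0. The p-values of limma treat same-day lists as separate samples, and the shares over all always-called regions stand with these counts above. The replicate numbers did not pair the samples. All 295 recomputed differences and counts of single named regions and genes kept their direction. A count of regions at a gene has no direction to reverse. The largest rises and falls were picked by the same ranks, so a reversal was unlikely for them. The 295 therefore do not show how stable the calls of other regions are. The low summit counts of day 4 limit how finely regions rank there, and whether they come from read totals or from enrichment was not tested.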

Other observations

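Runs of neighbouring regions along chromosomes were looked at after the ranks. Such runs were not counted for other regions at the same gap, so they do not show whether these regions cluster more than others. With gaps of at most 12.5 kb, 932 runs of 2 or more held 2133 of the 7106 regions (30.02%), and 53 runs held 4 or more. The longest, of 11 regions over 38.3 kb (chr9:2999972-3038319), overlaps 3 of the regions of high local background. The next lay at Irf2bpl and Lrrc74a (7 over 29.8 kb) and in Gramd3 (7 over 39.8 kb). The 6 runs of 6 included those at Il6st, the gene of the shared receptor chain of the interleukin 6 family, in Prkcq, at Tnfrsf1b, a TNF receptor of activated T cells, and in Vgll4, a cofactor of TEAD factors.

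Regions whose mean summit tag count on day 8 was at most 1.2 times that of day 4, a limit chosen after the values were seen, numbered 165 (2.32%), against 11 (0.137%) of the 8003 always-called regions near gene ends. Of these 165, 30.3% lay inside genes, against 58.5% of the other 6941, their median distance to a gene end was 48.2 kb, against 15.8 kb, and 0.641% held a listed start, against 14.5%. Their median mean percentile was 62.0, 16.8 and 22.1 on days 4, 8 and 21, against 37.3, 43.6 and 46.1 in the others, an order that the ratio itself fixes. They held 84 of the 663 regions that fell between day 8 and day 4.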
